A study of Mus musculus with 3 samples.

Results

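The S100 genes encode small calcium-binding proteins, and 8 of them are described here in mononuclear phagocytes of the infarcted neonatal mouse heart: S100a1, S100a4, S100a6, S100a8, S100a9, S100a10, S100a11 and S100a13. They were chosen by name among the 54752 genes listed in the count tables. Each was followed as the sum of its unique molecular identifiers (UMIs, 1 for each captured transcript molecule) over the cells of a cell type in a library, given per 1000000 UMIs of those cells (CPM). No S100 gene was used to assign a cell to a type.

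The libraries were single-cell RNA-seq libraries of cardiac cells from C57BL/6 mice operated on postnatal day 10 and killed 3 days later, at the age of 13 days. The P10-sham_vehicle mice had a sham operation and received vehicle. The P10-MI_vehicle mice had myocardial infarction (MI) by tying off the left anterior descending artery of the heart and received vehicle, and the P10-MI_SB225002 mice had the same MI and received SB225002, an antagonist of the chemokine receptor CXCR2, which neutrophils use to follow chemokines out of the blood. SB225002 and vehicle were injected into the peritoneum once a day, and mice of both sexes were used in the neonatal operations. Cells came from the infarct and border zones, pooled from several hearts for each library, and were sorted as CD45-positive and F4/80-positive. Each condition was 1 library, so no comparison below has a replicate or a test, and hearts within a library cannot be told apart. All intervals are 95% intervals and cover counting error only.

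Most S100 proteins work inside the cell as pairs that change shape when they bind calcium and then grip a partner protein. S100A8 and S100A9 pair with each other as calprotectin, which fills the cytosol of neutrophils and, at a lower level, of classical monocytes. When such cells are activated or die, calprotectin reaches the outside, where it acts as an alarm signal through receptors such as TLR4. The other genes described here serve more general roles, among them S100A10 with annexin A2 at the plasma membrane, S100A11 with annexin A1, S100A6 with the calcyclin-binding protein, S100A4 with non-muscle myosin, S100A13 in the release of proteins that lack a signal peptide, and S100A1 in calcium handling by heart muscle.

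All 8 genes lie on mouse chromosome 3 (build GRCm38). S100a1 (90511034 to 90514392, minus strand), S100a13 (90514435 to 90524581, plus strand), S100a4 (90603771 to 90606045, plus strand), S100a6 (90612882 to 90624181, plus strand), S100a8 (90668978 to 90670035, plus strand) and S100a9 (90692632 to 90695721, minus strand) share a cluster of 184.7 kb. S100a11 (93520488 to 93526287, plus strand) and S100a10 (93555080 to 93564643, plus strand) lie 2825 kb further on, 28.79 kb from each other. S100a1 and S100a13 are read away from each other from starts 42 bases apart. S100a4 overlaps the same-strand gene Gm42674 over 2115 bases, exons included. Gm42674 had 4, 11 and 1 UMIs over all kept cells, and the pseudogene S100a11-ps had at most 1 UMI in a library. Reads that fit both copies of such a pair may have been split by the counting, so S100a4 and S100a11 are uncertain to that extent.

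The 250 bases upstream of the RefSeq start (build GRCm38.p6, read on the gene's own strand) are shown for S100a8 and S100a9, because both transcripts were found together in the same cells and their ratio differed between libraries. Capitals mark the letters of 4 motifs, each searched on both strands: the TATA box (here TATAAA), the site of C/EBP factors (here TTGCNNAA), the core of ETS factors (here GAGGAA) and the GC box (here GGGCGG).
S100a8, chr3:90668821-90669070, plus strand: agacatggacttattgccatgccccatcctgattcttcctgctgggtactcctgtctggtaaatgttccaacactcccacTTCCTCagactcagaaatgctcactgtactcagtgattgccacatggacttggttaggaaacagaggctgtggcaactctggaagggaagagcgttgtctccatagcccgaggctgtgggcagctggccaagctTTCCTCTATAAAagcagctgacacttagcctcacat
S100a9, chr3:90695722-90695971, minus strand: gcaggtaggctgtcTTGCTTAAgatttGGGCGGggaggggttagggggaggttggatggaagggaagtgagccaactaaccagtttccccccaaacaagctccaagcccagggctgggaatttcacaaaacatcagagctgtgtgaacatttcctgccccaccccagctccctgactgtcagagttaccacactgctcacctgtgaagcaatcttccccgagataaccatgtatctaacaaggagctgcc

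The S100a8 stretch held TATAAA 30 bases before the start and TTCCTC, the reverse complement of GAGGAA, 36 and 170 bases before it. The S100a9 stretch held TTGCTTAA 236 bases and GGGCGG 223 bases before the start. None of the 4 strings of letters searched stood in both stretches, and shorter or other forms of these sites were not searched. Over 32851 promoter stretches of the same length in RefSeq, 12.4% held TATAAA, 9.56% held TTGCNNAA, 23.25% held GAGGAA and 32.7% held GGGCGG. In the gene annotation of the same build, S100a8 also has a first exon that begins inside the stretch shown. Of the other members, S100a4 held TATAAA 31 bases before its start and S100a11 held GAGGAA once and GGGCGG at 64, 52 and 24 bases before its start, while S100a1, S100a6 and S100a13 held none of the 4. The S100a10 promoter was not searched. A match is a string of letters and was not tested as a binding site.

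Of the barcodes listed, 2351, 3453 and 4744 were kept as cells in P10-sham_vehicle, in P10-MI_vehicle and in P10-MI_SB225002, the order in which 3 values are given throughout. They held 21655083, 26121162 and 31400723 UMIs, with medians of 8521, 6400 and 5654 UMIs a cell. Cell types were gated on marker genes, and in every type each gate's own markers summed to more CPM than over all cells, except in a set of phagocytes with little C1q that met neither monocyte gate. The gates were set on these same markers, so the sums are no independent check of the cell types. The sorted cells were not only macrophages: C1q-positive macrophages were 84.0%, 66.1% and 62.7% of cells, and 128, 287 and 306 cells passed as fibroblasts, endothelial cells, B cells or T/NK cells, called non-myeloid cells below. Between 1260 and 1844 barcode strings were shared by a pair of libraries, and cells with the same string were of the same type about as often as unrelated cells would be (57.6% against 58.5%, 56.8% against 56.5% and 46.9% against 48.7%). The ribosomal gene Rps29 was lower with SB225002 than with vehicle after MI in every type compared (log2 -1.41 over all cells and -1.39 in non-myeloid cells), phagocytes or not. The part of such a difference between whole libraries in the results below was not tested.

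S100a8 and S100a9 were, in every library, highest in neutrophils and lower at each step from neutrophils to monocytes to macrophages. In neutrophils, cells with at least 5 of 9 neutrophil markers and few phagocyte markers, the S100a8 level was 127847, 137869 and 99922 CPM over 19, 51 and 105 cells. The S100a9 level there was 166517, 149152 and 153251 CPM. Each of the transcripts was thus a large part of all UMIs of a neutrophil, and S100a8 was lowest in P10-MI_SB225002.

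Cells with as many neutrophil markers that also carried phagocyte markers (36, 102 and 156 cells) had 82420.2, 90214 and 41786 CPM of S100a8 and 92888, 84517 and 59141 CPM of S100a9. Both levels were lower than in neutrophils of the same library, and the part of barcodes that hold 2 cells in this set was not tested. Among Ly6c-high monocytes the S100a8 level was 32256, 11037 and 9576 CPM and the S100a9 level 25874, 7707 and 8593 CPM. The P10-sham_vehicle values rest on 10 monocytes, of which 1 held 38.1% of the S100a8 UMIs, so only the 186 and 256 monocytes of the MI libraries were compared.

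The remaining C1q-low phagocytes (9, 138 and 342 cells) had 3692, 2813 and 2399 CPM of S100a8, and C1q-positive macrophages (1976, 2284 and 2976 cells) had 491, 1582 and 1341 CPM. S100a9 gave 3334, 2114 and 2372 CPM in these C1q-low phagocytes and 507, 1278 and 1415 CPM in macrophages. Of the 9 C1q-low cells of P10-sham_vehicle, 1 cell held 89.9% of their S100a8 UMIs. Ace+ Ly6c-low monocytes, the patrolling kind, went apart from this order. In the 37 such cells of P10-MI_vehicle S100a8 was at 1534 CPM, with 57.3% of its UMIs in 1 cell, and S100a9 at 74.2 CPM, close to its level in non-myeloid cells.

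**Figure D1:**
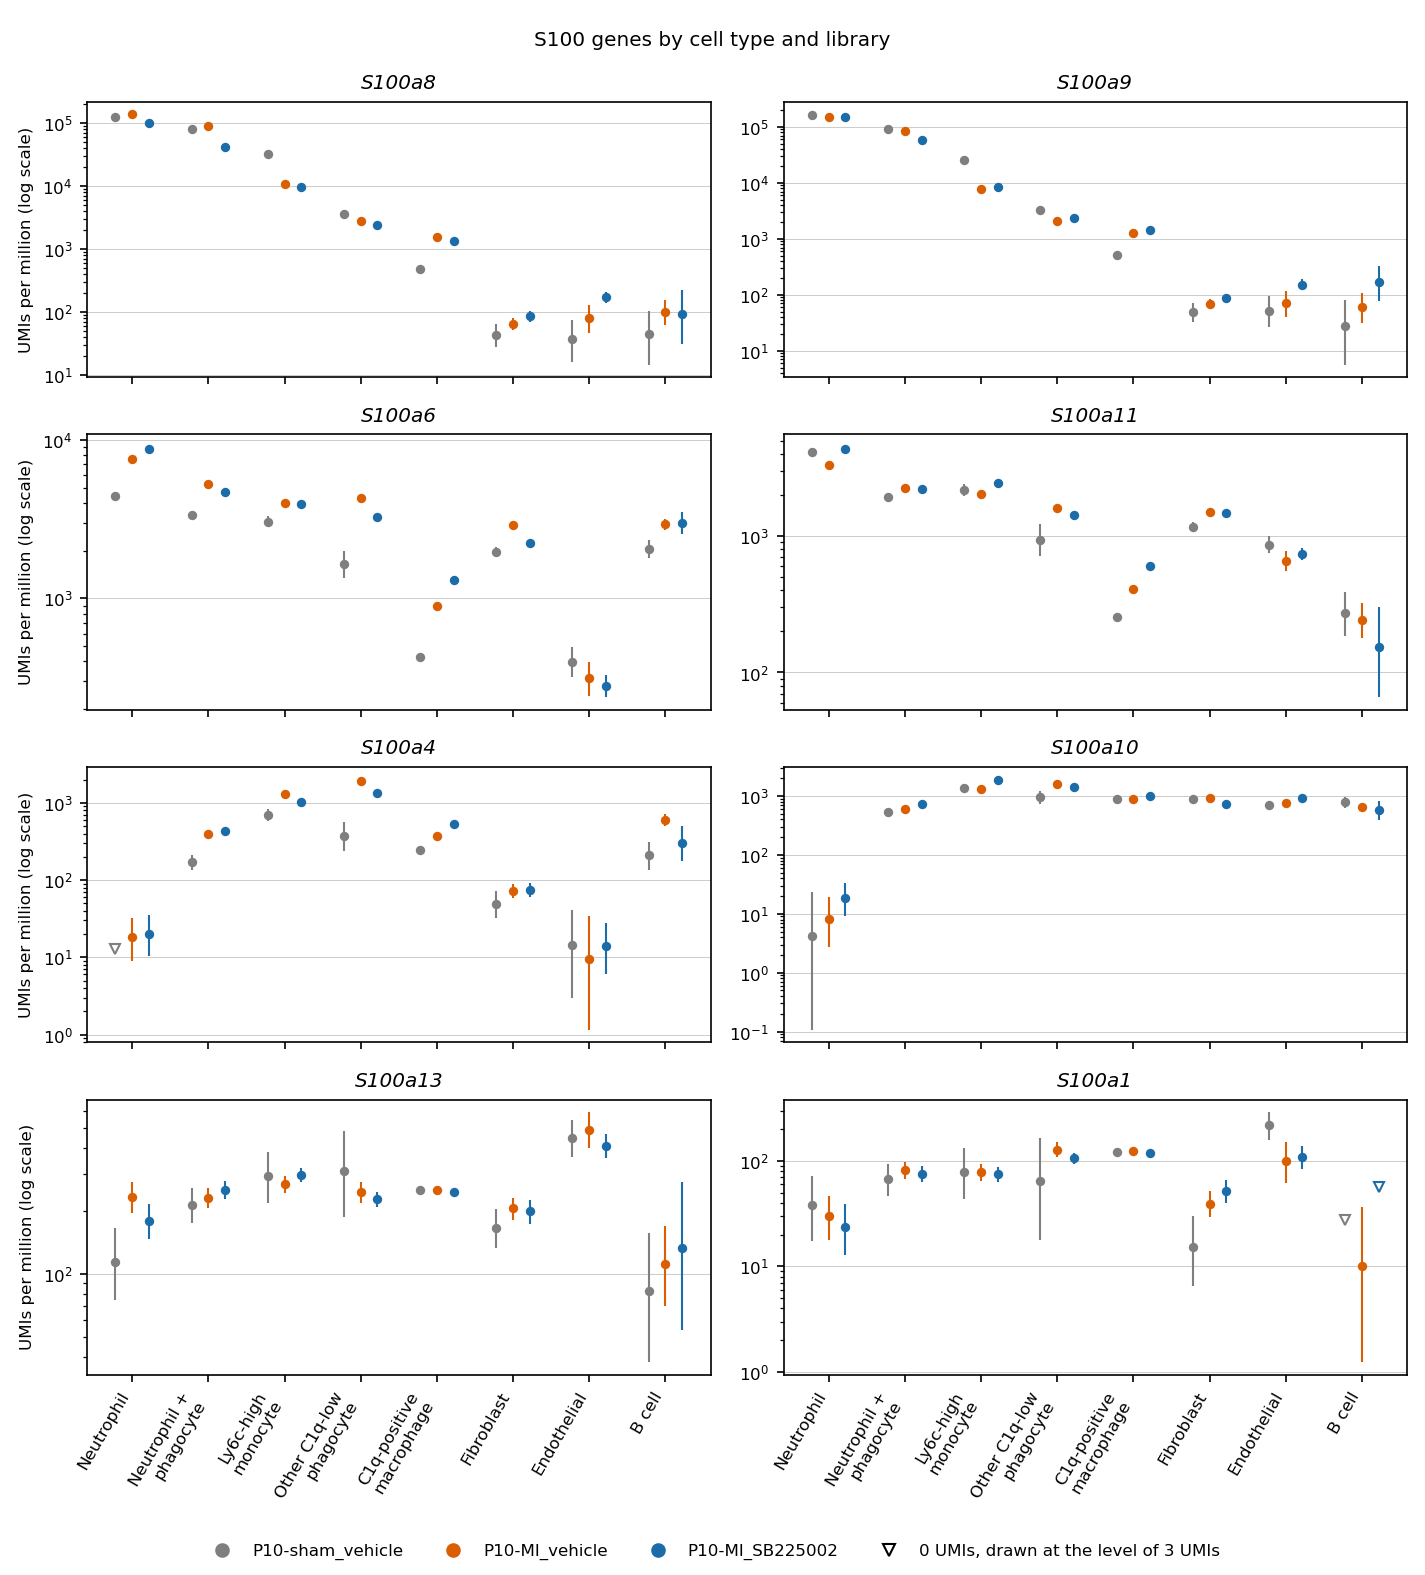
Level of each of the 8 S100 genes (CPM, log scale, a scale of its own in each panel) by cell type in the 3 libraries, with 95% Poisson intervals for counting error. S100a8 and S100a9 step down from neutrophils to macrophages and lie at or below 173 CPM of S100a8 in fibroblasts and endothelial cells, whereas S100a10 is at 545 to 1853 CPM in the other types with 20 or more cells and at most 18.5 CPM in neutrophils.

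Few cells held most of the calprotectin transcripts. The 2 sets of neutrophil-marker cells together were 55, 153 and 261 cells, and they held 81.7, 78.6 and 67.3% of all S100a8 UMIs and 84.9, 82.3 and 74.5% of all S100a9 UMIs. Macrophages held 10.4, 10.2 and 14.5% of S100a8 UMIs beside 86.2, 66.1 and 65.7% of the UMIs of all genes. The neutrophil share was lowest in P10-MI_SB225002, where Ly6c-high monocytes and macrophages held more of both transcripts than in P10-MI_vehicle.

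**Figure D2:**
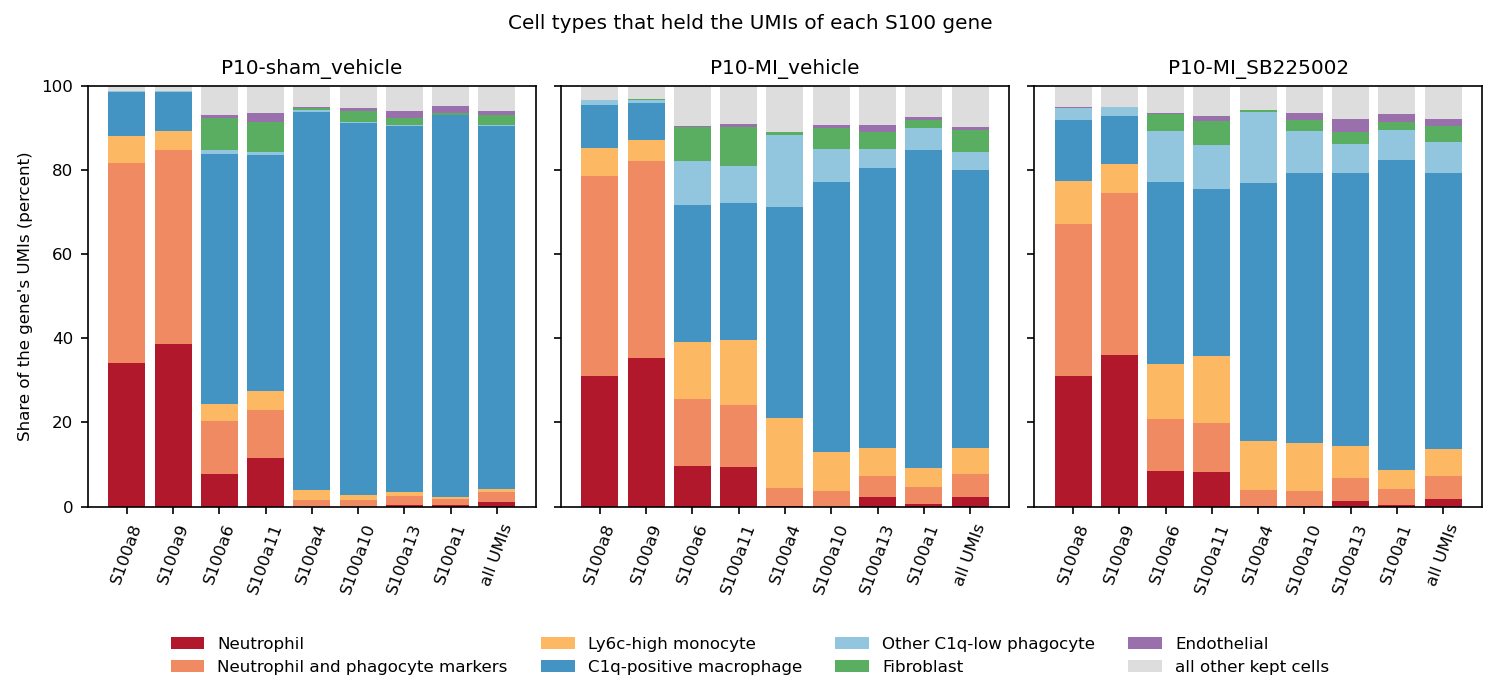
Share of each gene's UMIs (percent, from 0 to 100) held by each cell type in the 3 libraries, beside the same split for the UMIs of all genes in the last bar. Neutrophil-marker cells held 81.7% of S100a8 UMIs in P10-sham_vehicle, and macrophages of P10-MI_vehicle held 50.1% of S100a4 UMIs beside 66.1% of the UMIs of all genes.

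Over all kept cells, P10-MI_vehicle had 5 of the 8 members at least 1.5 times higher than P10-sham_vehicle and none at least 1.5 times lower. Of the 9076 genes that reached 10 CPM on one or both sides, 6.1% were higher by this fold and 2.4% were lower. The 5 were S100a6 (2.92-fold, log2 1.55, 1.52 to 1.57), S100a8 (2.52-fold, log2 1.33, 1.32 to 1.34), S100a11 (2.10-fold), S100a9 (2.07-fold) and S100a4 (2.05-fold). S100a10 (log2 0.07), S100a13 (log2 0.00) and S100a1 (log2 -0.08) differed little. The median log2 ratio was 1.04 over the members and -0.08 over all genes tested.

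The make-up of the libraries differed as well, with neutrophil-marker cells at 55 of 2351 cells in P10-sham_vehicle and 153 of 3453 in P10-MI_vehicle. When the gated types of every library were weighted to the make-up of P10-MI_vehicle, 2 members were still at least 1.5 times higher and the S100a9 difference changed from log2 1.05 to -0.18, with the P10-sham_vehicle side resting on as few as 5 cells for a type. A sum over all cells cannot tell more S100 transcript in a cell from more cells of a type that holds it, so the differences are given within types below.

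Between the 2 MI libraries, P10-MI_SB225002 had a 1.69-fold lower S100a8 level over all cells than P10-MI_vehicle (6088 against 10272 CPM, log2 -0.75, -0.76 to -0.75), the only member of 8 beyond 1.5 times. Over 9018 genes, 4.05% were lower by this fold and 2.82% higher. S100a9 was lower by less (log2 -0.27, -0.28 to -0.26). Without the neutrophil-marker cells, no member passed the fold, with S100a8 at log2 -0.15 and S100a9 at 0.24. With all cells summed, S100a4, S100a6, S100a10 and S100a11 were higher by log2 0.13 to 0.28. The comparison shares the P10-MI_vehicle library with the one against P10-sham_vehicle, so an unusual level in that library would appear in both with opposite sign.

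Within all neutrophil-marker cells, P10-MI_vehicle differed little from P10-sham_vehicle in S100a8 (log2 0.11, 0.10 to 0.12) and S100a9 (log2 -0.16, -0.17 to -0.15). S100a6 was 1.62-fold and S100a4 2.40-fold higher. These 2 of 8 members were higher by the fold and none lower, where 11.8% of 7208 genes were higher and 10.1% lower. The S100a4 UMIs of these cells came almost wholly from those that also carried phagocyte markers.

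In P10-MI_SB225002 the neutrophil-marker cells had S100a8 at 57194 CPM against 104486 CPM in P10-MI_vehicle, 1.83-fold lower (log2 -0.87, -0.88 to -0.86). S100a9 was at 84084 against 103874 CPM (log2 -0.30, -0.31 to -0.30), short of the fold. Without cells that also held markers of a second type and those with most UMIs, the S100a8 difference was log2 -0.46. Of the 8 members 1 was lower and none higher, where 2.98% of 7483 genes were lower and 20.2% higher, so many genes took a higher share of the UMIs of these cells in this library. The median log2 ratio was -0.02 over the members and 0.26 over all genes tested. Cells with neutrophil markers alone had a smaller S100a8 difference (log2 -0.46) than cells with both kinds of markers (log2 -1.11).

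Neutrophil precursors make granule proteins such as lactoferrin (Ltf), cathelicidin (Camp) and neutrophilic granule protein (Ngp), so the neutrophil-marker cells of each library were split into 3 equal parts by the summed level of these 3 genes. The S100a8 level was highest in the part with most granule transcript, at 105249, 122142 and 76536 CPM, and lowest in that with least, at 79531, 76046 and 40529 CPM. S100a9 ran the same way, from 91157, 73993 and 56618 CPM in the lowest part to 129390, 127281 and 113318 CPM in the highest. S100a4, nearly absent from cells with neutrophil markers alone, was at 364, 560 and 462 CPM in the lowest part and 33.7, 123 and 153 CPM in the highest. The parts thus mix cells with and without phagocyte markers, and the part of this mixture in the S100a8 and S100a9 levels was not tested. The parts were cut within each library and did not match in granule transcript. The 3 granule genes summed to 4285, 1466 and 386 CPM in the lowest part and to 24284, 32649 and 25534 CPM in the highest.

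The share of S100a8 in the pair differed between libraries in the same order in all 5 phagocyte sets that had over 20 cells in both MI libraries. The P10-sham_vehicle side rests on only 10 Ly6c-high monocytes and 9 other C1q-low phagocytes. Of these monocytes, 1 held 38.1% of the S100a8 and 44.1% of the S100a9 UMIs, so the place of P10-sham_vehicle in these sets is uncertain. In neutrophils there were 0.768 S100a8 UMIs per S100a9 UMI in P10-sham_vehicle (0.756 to 0.779), 0.924 in P10-MI_vehicle (0.916 to 0.933) and 0.652 in P10-MI_SB225002 (0.645 to 0.659). The ratio was thus highest in P10-MI_vehicle and lowest in P10-MI_SB225002, and the intervals did not overlap. Cells with neutrophil and phagocyte markers gave ratios of 0.887, 1.07 and 0.707. Ly6c-high monocytes gave 1.25, 1.43 and 1.11, the highest ratio of these types in each library. Macrophages gave 0.969, 1.24 and 0.948, and the other C1q-low phagocytes 1.11, 1.33 and 1.01. In these last 2 types the intervals of P10-sham_vehicle and P10-MI_SB225002 overlapped. Among the macrophage classes the order held with monocyte markers (0.990, 1.27 and 0.958) and with MHC class II transcripts (1.14, 1.47 and 0.818, the first on 8 and 7 UMIs). It did not hold with Lyve1 and Folr2 (0.966, 0.920 and 1.06, overlapping), with no further marker (0.713, 1.05 and 0.850) or with Spp1 and Gpnmb (0.636, 1.22 and 0.918).

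The difference between libraries was seen cell by cell as well. In the median neutrophil 43.9, 47.8 and 38.6% of the S100a8 and S100a9 UMIs were S100a8. The interquartile range of neutrophils in P10-MI_SB225002 (35.8% to 42.1%) lay below that of P10-MI_vehicle (45.1% to 49.7%). The order seen in neutrophils also held in each part by granule transcripts. The ratio was 0.872, 1.03 and 0.716 in the lowest part and 0.813, 0.960 and 0.675 in the highest. Barcodes that failed the filters on cells kept the same order of libraries (0.932, 1.06 and 0.888). With 1 library a condition, a property of the library cannot be told apart from an effect of MI or SB225002 on the pair.

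**Figure D3:**
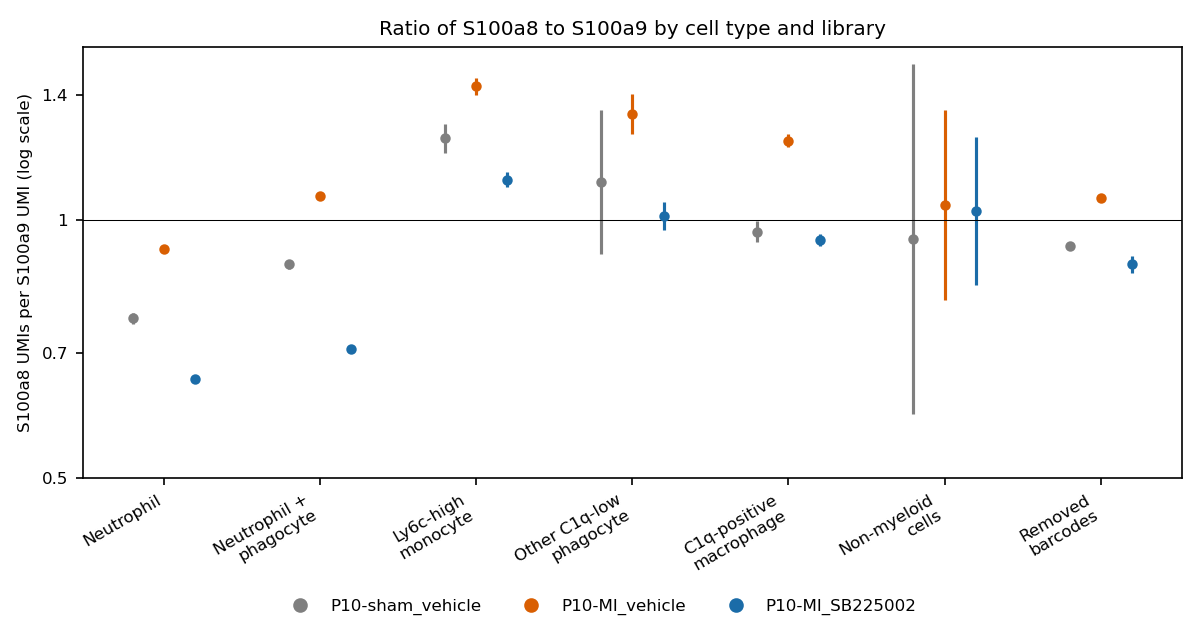
S100a8 UMIs per S100a9 UMI (log scale) by cell type in the 3 libraries, with exact 95% intervals for counting error. P10-MI_vehicle is highest and P10-MI_SB225002 lowest in all 5 phagocyte sets and in the removed barcodes, while the wide intervals of non-myeloid cells overlap. In P10-sham_vehicle the Ly6c-high monocytes are 10 cells and the other C1q-low phagocytes 9.

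C1q-positive macrophages of P10-MI_vehicle had S100a8 at 3.22-fold (log2 1.69, 1.65 to 1.72), S100a9 at 2.52-fold (log2 1.33, 1.30 to 1.37), S100a6 at 2.08-fold (log2 1.06, 1.02 to 1.10) and S100a11 at 1.60-fold (log2 0.68, 0.62 to 0.73) the level of P10-sham_vehicle. These 4 of 8 members were at least 1.5 times higher and none lower, where 2.94% of 8679 genes were higher and 1.06% lower. Their median log2 ratio was 0.63, beside -0.06 over all genes tested. S100a4 missed the fold at 1.49-fold. In P10-MI_SB225002 no member was beyond 1.5 times either way relative to P10-MI_vehicle, where 2.85% of 8672 genes were higher and 3.86% lower. S100a4, S100a6 and S100a11 came close, at 1.46-fold, 1.47-fold and 1.48-fold, and passed it under other scalings or filters.

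The macrophage level of S100a8 and S100a9 came from a minority of cells with monocyte markers. Macrophages with at least 4 of 8 Ly6c-high monocyte markers were 29, 162 and 322 cells, 1.47, 7.09 and 10.8% of macrophages. They held 89.6, 86.1 and 82.5% of the macrophages' S100a8 UMIs and 87.7, 84.2 and 81.6% of their S100a9 UMIs. Within this class the S100a8 level was 20418, 12841 and 6333 CPM, highest in the 29 cells of P10-sham_vehicle. In macrophages with the resident markers Lyve1 and Folr2 it was 65.6, 83.8 and 232 CPM, and in those with Spp1 and Gpnmb, markers of lipid-associated macrophages, 26.9, 74.3 and 426 CPM. The class with no further marker had 43.8, 315 and 227 CPM, and that with MHC class II transcripts 75.5, 1756 and 218 CPM. In the MHC class II class of P10-MI_vehicle, 1 of 50 cells held 50% of the S100a8 UMIs. Non-myeloid cells of the same libraries had 43.4, 73.0 and 114 CPM of S100a8, so in P10-MI_SB225002 each of these 4 classes lay above them.

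With the 5 classes of each library weighted to their shares in P10-MI_vehicle, the macrophage differences of S100a8 and S100a9 between P10-MI_vehicle and P10-sham_vehicle turned to log2 -0.48 and -0.81. Those of S100a6 (0.67), S100a4 (0.48) and S100a11 (0.30) kept their sign at a smaller size. The P10-sham_vehicle side of this weighting rests on 29 macrophages with monocyte markers. Without the macrophages with monocyte markers, the S100a8 difference was log2 2.23 and that of S100a9 1.83, at the lower levels of the remaining classes. The sign of the macrophage difference in S100a8 and S100a9 thus depended on whether the small class with monocyte markers was summed, weighted or left out. Of the macrophages of P10-MI_vehicle with more S100a8 and S100a9 than any non-myeloid cell of that library (99 of 2284), 74.7% had at least 4 monocyte markers and 86.9% had at least 1 neutrophil marker. The other macrophages of P10-MI_vehicle had 4.03% and 25.3%, at a median of 6566 UMIs a cell against 9666. The same cells of P10-sham_vehicle (44) had 52.3% and 61.4%, and those of P10-MI_SB225002 (143) had 70.6% and 91.6%. Without every macrophage that had a neutrophil marker, the differences between P10-MI_vehicle and P10-sham_vehicle were log2 1.55 for S100a8, 0.86 for S100a9 and 0.68 for S100a6, and those between P10-MI_SB225002 and P10-MI_vehicle were 1.12 for S100a8 and 1.30 for S100a9.

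**Figure D4:**
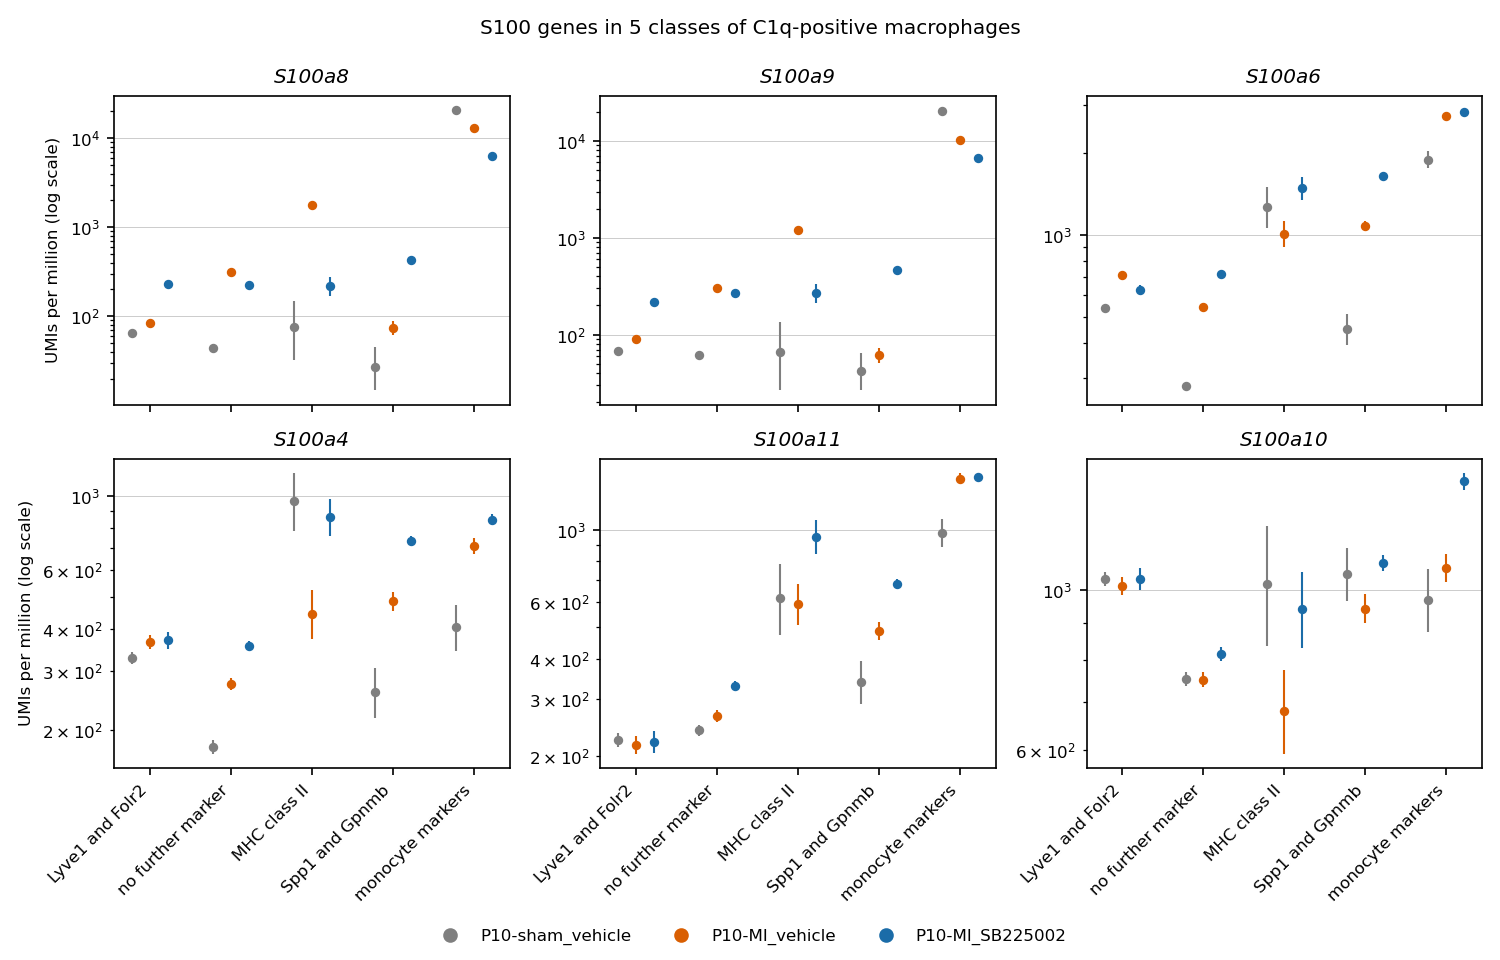
Level of 6 S100 genes (CPM, log scale, a scale of its own in each panel) in 5 classes of C1q-positive macrophages in the 3 libraries, with 95% Poisson intervals for counting error. S100a8 and S100a9 are highest in the class with monocyte markers (20418, 12841 and 6333 CPM of S100a8), and S100a11 lies between 216 and 224 CPM in the Lyve1 and Folr2 class of every library.

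S100a8 and S100a9 UMIs were also found in cells that should not make them. In fibroblasts, endothelial cells, B cells and T/NK cells together the S100a8 level was 43.4, 73.0 and 114 CPM and the S100a9 level 45.7, 70.2 and 111 CPM. Without the 1 non-myeloid cell with the most of them, an endothelial cell with 55 such UMIs, the P10-MI_SB225002 levels were 97.0 and 98.1 CPM. Both transcripts were thus lowest in P10-sham_vehicle and highest in P10-MI_SB225002, in which the neutrophil-marker cells themselves had the lowest S100a8 level.

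Set against the level in neutrophil-marker cells of the same library, the level in non-myeloid cells was 4.48, 6.99 and 19.9 parts per 10000 for S100a8 and 3.93, 6.75 and 13.2 for S100a9. Stfa1, a cysteine protease inhibitor of neutrophil cytosol, gave 3.58, 7.59 and 18.6 per 10000. Of 8 neutrophil genes listed for this purpose, 5 had their highest value in P10-MI_SB225002 (Camp, Ngp, Retnlg, Stfa1 and Stfa2l1), Lcn2 and Mmp8 had theirs in P10-MI_vehicle and Ltf in P10-sham_vehicle, each on at most 47 UMIs in the non-myeloid cells of a library. Set against macrophages, C1qa gave 93.2, 44.6 and 69.4, C1qb 84.9, 49.8 and 103 and C1qc 46.5, 64.7 and 99.4 parts per 10000. Apoe and Lyz2, macrophage genes that were not gate markers, gave 1087, 401 and 392 and 138, 139 and 148 parts per 10000. The order of libraries thus differed from gene to gene in both lists. The C1q genes and Ltf, Camp, Ngp, Retnlg and Mmp8 were themselves used in the gates. This limits their level in non-myeloid cells, so their values are no independent measure of free RNA. The ratio of S100a8 to S100a9 in non-myeloid cells was 0.95, 1.04 and 1.02, with intervals of 0.593 to 1.52, 0.806 to 1.34 and 0.840 to 1.25. In P10-MI_SB225002 that interval lay above the ratio of the neutrophil-marker cells (0.680). It held those of Ly6c-high monocytes, other C1q-low phagocytes and macrophages. In P10-MI_vehicle the interval held the ratio of the neutrophil-marker cells (1.01) and lay below that of Ly6c-high monocytes (1.43). The interval of P10-sham_vehicle held the ratios of all these sets, with 0.833 in neutrophil-marker cells. The source of these UMIs was not tested.

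The share of cells with at least 1 S100a8 UMI has to be read against this background. It was 31.5, 42.7 and 53.6% of macrophages and 26.6, 34.5 and 40.8% of non-myeloid cells, at median depths of 8831, 6631 and 6070 UMIs a cell in macrophages and 6234, 4678 and 4681.5 in non-myeloid cells. With each cell thinned to 1000 UMIs the shares were 5.40, 13.7 and 21.5% and 1.56, 7.61 and 12.3%. At that depth the macrophages with Lyve1 and Folr2 were at 4.37, 8.48 and 11.2%, above the non-myeloid share in P10-sham_vehicle and P10-MI_vehicle and below it in P10-MI_SB225002. In P10-MI_SB225002 their S100a8 level was above that of non-myeloid cells (232 against 114 CPM), so no order is read from these shares.

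S100a6, the calcyclin gene, was higher in P10-MI_vehicle than in P10-sham_vehicle in each of the myeloid types, in fibroblasts and in B cells. The P10-sham_vehicle side was only 10 Ly6c-high monocytes, 5 Ace+ Ly6c-low monocytes and 9 other C1q-low phagocytes, so the difference is uncertain in these types. Neutrophils had 4416, 7549.8 and 8782 CPM, Ly6c-high monocytes 3050.3, 3966 and 3961 CPM and macrophages 427, 889 and 1303 CPM. Fibroblasts had 1970.2, 2897 and 2221 CPM, so the gene was not a marker of phagocytes. Endothelial cells were at 398, 314 and 279.9 CPM, and their P10-MI_vehicle and P10-sham_vehicle levels differed within counting error (log2 -0.34, -0.83 to 0.14). Among macrophages the level was higher in P10-MI_vehicle than in P10-sham_vehicle in 4 of 5 classes, from 279 to 545 CPM in those with no further marker and from 452 to 1079 CPM in those with Spp1 and Gpnmb. The class with MHC class II transcripts, 12 cells in P10-sham_vehicle, was the exception.

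S100a4, also known as metastasin or fibroblast-specific protein, was highest in monocytes and C1q-low phagocytes. In the MI libraries Ly6c-high monocytes had 1310.2 and 1035 CPM, and the other C1q-low phagocytes 1931 and 1333 CPM. Fibroblasts, for which the gene has been used as a marker, had 49.5, 72.6 and 74.7 CPM, below the 249, 371 and 541 CPM of macrophages. Macrophages held 89.8, 50.1 and 61.3% of all S100a4 UMIs. In the MI libraries the C1q-low phagocytes that met neither monocyte gate held a further 17.2% and 16.9%, beside 4.37% and 7.36% of the UMIs of all genes.

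Within macrophages the S100a4 level differed by class and by library, with the smallest differences between libraries in the resident class. There P10-MI_vehicle was above P10-sham_vehicle by log2 0.16 (0.07 to 0.25). The level was 328, 367 and 370.4 CPM with Lyve1 and Folr2. It was 178, 274 and 356 CPM with no further marker and 259.6, 484 and 733 CPM with Spp1 and Gpnmb. The last 2 classes were lowest in P10-sham_vehicle and highest in P10-MI_SB225002, and the intervals of the 3 libraries did not overlap in either. The class with MHC class II transcripts went another way, at 962, 444 and 861 CPM over 12, 50 and 49 cells. The class with monocyte markers, at 405, 706 and 848 CPM, was above that with Spp1 and Gpnmb in each library. The classes with monocyte markers and with Spp1 and Gpnmb were 1.47, 7.09 and 10.8% and 1.77, 7.71 and 19.4% of macrophages. Both classes, and the S100a4 level in each, were thus larger in P10-MI_SB225002 than in the other libraries.

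S100a11 was highest in neutrophils, at 4119.7, 3314 and 4349.8 CPM, and Ly6c-high monocytes had 2199, 2037 and 2442 CPM. Fibroblasts had 1169, 1515 and 1472 CPM and macrophages, the lowest of the phagocytes, 255, 407 and 603 CPM. In the macrophage classes it was 224, 216 and 220.5 CPM with Lyve1 and Folr2, with intervals that overlapped between the 3 libraries, and 338, 486 and 679.7 CPM with Spp1 and Gpnmb, where they did not. Ly6c-high monocytes of the 2 MI libraries differed by log2 0.26 in S100a11. In these monocytes no member was beyond 1.5 times between P10-MI_SB225002 and P10-MI_vehicle, where 9.9% of 8205 genes were higher and 11.6% lower.

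S100a10, the partner of annexin A2, was lower in neutrophils than in any other gated type. It was 878, 876 and 1019 CPM in macrophages, 881, 924 and 739.9 CPM in fibroblasts and 716, 761 and 913 CPM in endothelial cells. Ly6c-high monocytes had 1359, 1333 and 1853 CPM. In neutrophils it was 4.23, 8.27 and 18.5 CPM, from 1, 5 and 11 UMIs over 19, 51 and 105 cells. No other gate with 20 or more cells was under 545 CPM. Cells with neutrophil and phagocyte markers were at 545, 606 and 735 CPM, between neutrophils and macrophages in each library.

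S100a4 shared this gap. Its level in neutrophils was 0 of 236180 UMIs in P10-sham_vehicle, where 3 UMIs would give 12.7 CPM, then 18.2 and 20.1 CPM, against 171, 393 and 433 CPM in cells with both kinds of markers. Endothelial cells had between 9.51 and 14.2 CPM, with intervals that overlapped those of neutrophils. The neutrophils described here thus carried S100a8, S100a9, S100a6 and S100a11 at the highest levels of any gate and S100a4 and S100a10 at or near the lowest.

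Dividing macrophages, with at least 4 of 6 division markers, had S100a10 at 1084, 1187 and 1213 CPM against 788, 741 and 895 CPM in macrophages with at most 1. S100a1 went the other way in each library, at 96.0, 102 and 97.2 against 133, 132 and 131 CPM. The intervals of dividing and non-dividing cells did not overlap in any library for either gene.

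S100a13 and S100a1, whose starts are neighbours, differed little between libraries over all cells and in macrophages. In macrophages S100a13 was at 250.5, 251 and 247 CPM and S100a1 at 122, 126 and 120.2 CPM, with overlapping intervals between libraries. Endothelial cells had the highest S100a13 level, 446, 490.0 and 411 CPM. Their S100a1 level was 218, 99.9 and 108 CPM, highest in the 34 cells of P10-sham_vehicle. Fibroblasts had less S100a1 than macrophages, at 15.2, 39.3 and 51.8 CPM, as did neutrophils, at 38.1, 29.8 and 23.5 CPM. Outside macrophages the libraries did differ: between P10-MI_vehicle and P10-sham_vehicle S100a1 differed by log2 1.37 in fibroblasts and -1.13 in endothelial cells, and S100a13 by log2 1.03 in neutrophils, on 141 and 27 UMIs. Over the 21 sums of type and library with at least 20 cells, the log2 levels of S100a1 and S100a13 had a Pearson r of 0.74, and those of S100a8 and S100a9 an r of 0.97. These sums share 3 libraries and are not independent.

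The same sums gave, for each member, the genes whose level ran most alike among 13260 genes. For S100a8 these were Cebpe (r = 0.98), a transcription factor of late granulocyte maturation, Gca (0.97), the calcium-binding protein grancalcin, and Gm5483 (0.97). For S100a9 they were A530064D06Rik (0.98) and the gate markers Mmp8 (0.98) and Cxcr2 (0.98), the receptor that SB225002 blocks. S100a4 ran with Irf5 (0.95), Alcam (0.95) and Ifi30 (0.94), the last a thiol reductase of lysosomes. S100a6 ran with Pbxip1 (0.94), Stx11 (0.87) and Cdk2ap2 (0.86), and S100a11 with Zyx (0.89), Mgst1 (0.89) and Sgms2 (0.89).

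S100a10 ran with Snrpf (0.98), Hint1 (0.97) and Mrpl21 (0.97), of which Snrpf encodes a part of the spliceosome and Mrpl21 a mitochondrial ribosomal protein. S100a13 ran with Cav2 (0.91), Nostrin (0.90) and Eepd1 (0.89), of which caveolin 2 and nostrin are known from endothelial cells. S100a1 ran with Bnip3 (0.94), Zbtb34 (0.93) and Srd5a3 (0.92). No member was among the 3 most alike genes of another member.

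Of 9 other S100 genes listed, S100a16 was the only one above 10 CPM on more than 3 UMIs. It was at 194, 169 and 238 CPM in fibroblasts and 484, 295 and 441 CPM in endothelial cells, and at most 3.03 CPM in neutrophils, Ly6c-high monocytes, macrophages and the other C1q-low phagocytes. S100a5 passed 10 CPM in B cells on 3, 2 and 2 UMIs, and S100b in 2 sums on 1 UMI each. S100a2, S100a3, S100a7a, S100a14 and S100g stayed under that level in every sum, and S100z had no UMI.

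Among the partners, Anxa2 (annexin A2) was at 1135, 994 and 1158 CPM in neutrophils, where S100a10 was nearly absent, at 356, 449 and 672 CPM in macrophages and at 1257, 1180.1 and 1432 CPM in Ly6c-high monocytes. Anxa1 (annexin A1), the partner of S100A11, was highest in neutrophils, at 3616, 3203 and 3321 CPM, as S100a11 was, and stood at 172, 227 and 276 CPM in macrophages. Ahnak, a large scaffold bound by S100A10 with annexin A2, was low in neutrophils with S100a10, at 33.9, 16.5 and 78.9 CPM against 636, 683 and 551 CPM in macrophages. Anxa5 was at 422, 423 and 546 CPM and Anxa6 at 106, 98.5 and 94.2 CPM in macrophages.

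Cacybp, the calcyclin-binding protein, was at 0, 6.62 and 5.03 CPM in neutrophils, where S100a6 was highest, and at 93.0, 82.5 and 87.6 CPM in macrophages. Sugt1 was at 88.3, 89.4 and 80.0 CPM and Myh9, the non-muscle myosin heavy chain bound by S100A4, at 374, 355 and 369 CPM in macrophages. None of the 8 partner genes was beyond 1.5 times in macrophages in either comparison. Anxa2 came nearest, higher by log2 0.58 in P10-MI_SB225002 than in P10-MI_vehicle, as S100a4, S100a6 and S100a11 were higher there.

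Receptors for extracellular calprotectin had transcripts in C1q-positive macrophages at levels that differed little between libraries. In macrophages Tlr4 was at 67.3, 71.3 and 60.4 CPM, its co-receptors Ly96 at 57.1, 54.7 and 54.9 and Cd14 at 192, 243 and 245 CPM, and the adaptor Myd88 at 51.9, 45.5 and 47.0 CPM. Ager, which encodes the receptor RAGE, was at most 1.56 CPM in macrophages. Bsg (basigin) was at 244, 219 and 258 CPM in macrophages. Cd36 was at 294, 279 and 285 CPM in macrophages and highest in endothelial cells, at 3914, 3787 and 2785 CPM. None of the 7 was beyond 1.5 times in macrophages in either comparison among those with at least 10 CPM.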

How the data were processed

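The deposited files were 1 table per library of whole UMI counts per gene and cell barcode, which the authors made from droplet single-cell RNA-seq reads. The submitters' processing notes name Seurat 4.1.0 and the build mm10. The aligner, the counter and the annotation were not given in the sources used here.

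Cells with 500 to 30000 UMIs, 500 to 5000 genes and less than 10% mitochondrial UMIs were kept. No doublets were removed, and an alternative left out cells with markers of a second type and the top 5% of UMIs. Cells were gated on marker genes. Fibroblasts, endothelial cells, B cells, T/NK cells and mural cells needed at least 4 of 8 markers, fewer than 3 of 8 phagocyte markers and fewer than 5 C1qa, C1qb and C1qc UMIs per 10000. Dendritic-like cells had no gate of their own. Neutrophils needed at least 5 of 9 markers with at most 3 phagocyte markers and fewer than 10 C1q UMIs per 10000, and other cells with 5 neutrophil markers made the set with both kinds of markers. Phagocytes had at least 3 of 8 phagocyte markers. Those with at least 20 C1q UMIs per 10000 were macrophages, and those below 10 with at least 4 monocyte markers were monocytes. The macrophage cut is a point on a range: 8, 48 and 141 phagocytes lay just below it, between 10 and 20 per 10000, and 18, 62 and 110 macrophages just above it, below 30.

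UMIs were summed by type and library and divided by all UMIs of those cells (CPM). Sums have exact Poisson, shares exact binomial (Clopper-Pearson) and ratios exact conditional 95% intervals, which cover counting error only. A gene was called higher or lower between libraries at 1.5 times or more, among genes that reached 10 CPM in one or both libraries. With 1 library per condition, no test was possible. Thinning drew 1000 UMIs per cell and left out 36, 78 and 154 shallower cells. TMM factors came from edgeR 4.0.16 in R 4.3.3, and all else was computed with Python 3.11.15, numpy 2.4.6, scipy 1.17.1 and pandas 2.3.3. The calls, intervals and thinning were tested on simulated data.

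The text names all 8 members, the 3 genes most correlated with each over sums of at least 20 cells, other S100 genes that reach 10 CPM, and their partners and receptors. The neutrophil granule genes, Rps29, Gm42674 and single cells with large shares of a sum were named after their values were seen. Members, lists and tests were chosen with earlier results of these data known.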

Additional observations from a re-analysis of the deposited data

Results flagged for a closer look

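S100a8 differed in opposite directions between the same 2 libraries in different cell types. Relative to P10-MI_vehicle, its log2 ratio in P10-MI_SB225002 was 1.10 in endothelial cells and -1.11 in cells with neutrophil and phagocyte markers. The difference between the cell types was not tested, since each condition was 1 library. In endothelial cells the value rests on 17 and 99 UMIs of S100a8 (80.9 and 173 CPM) over 47 and 132 cells, and 1 cell held 31.3% of the 99.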

How the results depend on the processing

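Counts of members beyond 1.5 times moved with the processing, as follows, and where no reason is given the cause was not tested. Over all cells, with types weighted to P10-MI_vehicle, 2 members in place of 5 were higher in P10-MI_vehicle than in P10-sham_vehicle, and S100a9 turned from log2 1.05 to -0.18. No member (0) in place of 1 was lower in P10-MI_SB225002 with each cell at the same weight, with second-type and top 5% cells left out, thinned to 1000 UMIs, or without gated neutrophils. In macrophages with classes weighted to P10-MI_vehicle (added after the data were seen), 1 member in place of 4 was higher after MI and 1 in place of 0 lower, with S100a8 at log2 -0.48 in place of 1.69 and S100a9 at -0.81 in place of 1.33. Between the MI libraries, macrophages then had 1 member lower in place of 0. Members higher there, 0 in the report, were 3 under TMM scaling, 2 with each cell at the same weight, 1 with a stricter gate, 3 with second-type and top 5% cells left out, 1 when thinned, and 5 without macrophages with a neutrophil marker (also added later). The macrophage ratio of S100a8 between the MI libraries ran from log2 -0.82 to 1.12 and that of S100a9 from -0.43 to 1.30 over all settings, so neither has a stable sign.

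In Ly6c-high monocytes 2 members in place of 0 were higher with each cell at the same weight, 1 with a stricter gate, 2 with second-type and top 5% cells left out and 2 when thinned, which also gave 1 lower. In the neutrophil gates after MI, 1 member in place of 2 was higher with no filter on cells and 5 when thinned, and 1 in place of 0 was lower with second-type and top 5% cells left out. That setting gave 2 higher in place of 0 and 0 lower in place of 1 between the MI libraries. The neutrophil gates' share of S100a8 and S100a9 UMIs (83.4%, 80.4% and 71.4%) was 82.9%, 81.8% and 70.6% at under 5% mitochondrial UMIs and 79.0%, 78.0% and 65.2% with a stricter gate, and without second-type and top 5% cells 79.8% in P10-sham_vehicle and 71.7% in P10-MI_SB225002. Thinned, the S100a8 and S100a9 level of non-myeloid cells was 62.5, 181 and 317 CPM in place of 89.1, 143 and 225, and 195 in P10-MI_SB225002 without its highest cell. Of all values recomputed, 122 counts stayed within 1.5 times and 24 did not, 62 levels or shares and 305 log2 ratios moved by less than counting error, 79 and 275 moved by more, and 3 ratios, given above, changed sign after passing the fold. No paired analysis was possible because each condition was 1 library.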

Other observations

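Barcodes that did not pass the filters on cells (1039, 1058 and 1039) had S100a8 at 11051, 15657 and 4989 CPM, beside 4075, 10272 and 6088 CPM in kept cells. S100a6 was at 1181, 1937 and 1715 CPM in them, beside 618, 1807 and 1977 CPM. The removed barcodes of P10-sham_vehicle and P10-MI_vehicle thus held more of both transcripts than the kept cells, and those of P10-MI_SB225002 less.

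Markers of cardiomyocytes, which the sort should leave out, had UMIs in every library. The 6 markers, all with a UMI, summed to 261, 159 and 210 CPM over all kept cells. Their part in the S100a1 levels was not tested.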
